A study of Mus musculus with 4 samples.

Results

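The Serpina genes encode clade A of the serpins, a family of secreted proteins of which many are made by hepatocytes. The set described here holds 9 symbols, Serpina12, Serpina4-ps1, Serpina3k, Serpina3m, Serpina3n, Serpina6, Serpina7, Serpina10 and Serpina11. They were selected on the log2 difference between genotypes on these same arrays. Every probe set that the platform annotation assigned to a listed symbol was taken. That gave 10 probe sets of 7 genes, out of 45037 probe sets and 18193 named genes. Serpina3k and Serpina3m are not analysed here. Serpina12 had 2 probe sets, Serpina4-ps1 had 3, and each of the other 5 genes had 1.

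A serpin presents an exposed reactive loop as bait to a protease. When the protease cuts the loop, the serpin snaps into a new shape and traps the protease in a covalent complex. Some clade A members, such as the carriers of corticosteroids and of thyroid hormone, have lost this activity and transport hormones in plasma.

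Livers were compared between C57BL/6 mice with a liver-specific knockout of Baf60a (Baf60a LKO) and wild-type (WT) mice. All mice had received a high-fat diet for 10 weeks from 6 weeks of age, and were fasted overnight before the livers were collected. Smarcd1 is the gene of BAF60a, which belongs to SWI/SNF, which remodels chromatin. Each group had 2 Affymetrix mouse expression arrays, each carrying an independent pool of liver RNA. A replicate is therefore a pool. Errors and p-values come from a limma fit, which draws each probe set's spread between pools toward a spread shared by all probe sets. An error is thus not the spread of that probe set alone. How many mice made a pool, which promoter drives Cre, which exons were deleted and the sex of the mice are not stated in the labels.

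The 2 Smarcd1 probe sets read 5.34 and 5.30 (brighter) and 2.70 and 2.75 (dimmer) in Baf60a LKO livers, against 5.62 and 5.88, and 2.87 and 2.86, in WT livers, on the log2 scale. Whether either lies in the deleted part is not known here, so they do not check the genotype. Each of 4 control probe sets for Cre recombinase read higher in both Baf60a LKO arrays (2.64 to 6.22) than in both WT arrays (2.04 to 3.91), with 1 of them below background throughout. Hepatocyte markers were high, for example albumin (Alb) at 14.13 and 14.17 in Baf60a LKO and 14.05 and 14.08 in WT. None of the 9 measured hepatocyte markers passed the test between genotypes. WT replicate 1 stood apart from the other arrays. Its correlation with them, over probe sets, was 0.987 to 0.991, and the other pairs had 0.993 to 0.996. Probe sets for bacterial transcripts, a gauge of background, had 95th percentiles of 3.02 to 3.42 on the 4 arrays.

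RefSeq promoter windows of GRCm38.p6, from 250 bases before to 50 bases after the annotated start, were on hand for 4 of the 9 genes. They are shown because these genes lie at different points of the range of differences, with Serpina12 the lowest and Serpina11, of the same cluster, at the other end. Capitals mark matches to 4 motifs searched on both strands: TTCNNNGAA, the STAT palindrome, GTTAAT, a half-site of HNF1, AGGTCA, a half-site of nuclear receptors, and TATAAA, the TATA box.
Serpina12 (chr12:104044394-104044693, minus strand): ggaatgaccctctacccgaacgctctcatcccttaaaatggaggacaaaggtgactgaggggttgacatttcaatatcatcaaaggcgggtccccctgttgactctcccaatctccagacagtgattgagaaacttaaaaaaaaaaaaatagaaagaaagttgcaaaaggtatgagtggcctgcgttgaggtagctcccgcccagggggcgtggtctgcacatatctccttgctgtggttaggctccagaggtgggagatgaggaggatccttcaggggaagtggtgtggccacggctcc
Serpina11 (chr12:103989908-103990207, minus strand): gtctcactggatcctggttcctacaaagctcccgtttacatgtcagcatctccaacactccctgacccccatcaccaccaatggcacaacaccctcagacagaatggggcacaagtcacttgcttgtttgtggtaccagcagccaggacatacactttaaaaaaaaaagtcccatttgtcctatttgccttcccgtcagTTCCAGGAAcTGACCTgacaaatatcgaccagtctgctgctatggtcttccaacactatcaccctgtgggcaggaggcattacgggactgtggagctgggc
Serpina3n (chr12:104406458-104406757, plus strand): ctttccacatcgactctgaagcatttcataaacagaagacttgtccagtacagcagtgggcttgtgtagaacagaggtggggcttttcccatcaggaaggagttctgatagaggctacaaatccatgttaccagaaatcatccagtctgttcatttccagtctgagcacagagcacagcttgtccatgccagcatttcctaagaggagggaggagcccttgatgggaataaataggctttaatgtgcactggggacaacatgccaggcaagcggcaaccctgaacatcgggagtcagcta
Serpina7 (chrX:139085187-139085486, minus strand): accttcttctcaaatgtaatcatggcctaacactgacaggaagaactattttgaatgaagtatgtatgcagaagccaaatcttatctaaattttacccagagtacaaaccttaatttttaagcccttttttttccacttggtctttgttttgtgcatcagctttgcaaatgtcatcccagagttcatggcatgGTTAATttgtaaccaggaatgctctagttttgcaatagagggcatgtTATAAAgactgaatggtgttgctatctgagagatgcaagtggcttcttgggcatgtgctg

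The windows of Serpina12 and Serpina3n held none of the 4 motifs. Serpina11 held TTCCAGGAA at -51 to -43 and TGACCT, the reverse complement of AGGTCA, at -41 to -36, counted from the start. Serpina7 held GTTAAT at -57 to -52 and TATAAA at -10 to -5. Both Serpina11 and Serpina7 had a second annotated start nearby, and its window held the same matches. Counted from that start, TATAAA of Serpina7 lay at -27 to -22 and its GTTAAT at -74 to -69. For Serpina11, TTCCAGGAA lay at -65 to -57 and TGACCT at -55 to -50. Of 32817 windows of 300 bases, 8.3% held TTCNNNGAA, 7.1% GTTAAT, 16.3% AGGTCA and 13.6% TATAAA. The Serpina11 motifs do not overlap each other. GC content was 51.0% for Serpina12, 51.0% for Serpina11, 48.7% for Serpina3n and 38.3% for Serpina7, against a median of 52.7% over all windows.

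Serpina12 and Serpina4-ps1 were far lower in Baf60a LKO livers than in WT livers. Serpina3n, Serpina7 and Serpina6 were lower by smaller amounts, and Serpina10 and Serpina11 read slightly higher. The differences of these genes helped to choose them, so they are given as a description, with the standard error of a limma fit and no test. In whole liver, fewer cells of a type and less RNA per cell cannot be told apart.

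Serpina12 encodes vaspin, a secreted inhibitor of kallikrein 7 that was first described in visceral fat of rats. Its brighter probe set read 5.34 and 5.44 in Baf60a LKO, against 10.20 and 9.77 in WT. The groups lay far apart. The Baf60a LKO replicates were close (SD 0.07), and the WT replicates less so (SD 0.31). The log2 difference was -4.60 ± 0.18, a 24.2-fold lower value in Baf60a LKO, and it ranked 5 among the falls of all 45037 probe sets. Only 0.0111% of probe sets had a larger difference in either direction. Both Baf60a LKO values were above the bacterial 95th percentiles of their arrays (3.02 and 3.12). Whether they are signal of Serpina12 or of other sequences was not tested, so the fold size is uncertain.

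The other Serpina12 probe set was dim. It read 2.95 and 3.50 in Baf60a LKO and 3.99 and 3.85 in WT. In WT both values exceeded their arrays' bacterial 95th percentiles (3.39 and 3.42), while in Baf60a LKO 1 value was below its array's (3.02) and 1 above (3.12). Its log2 difference was -0.70 ± 0.20, and -0.42 or -0.97 with replicate 1 or 2 of Baf60a LKO left out. Thus both probe sets had Baf60a LKO below WT without overlap, at very different sizes. The mean of both gave -2.65. Which part of the transcript each probe set reads was not analysed here.

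Serpina4-ps1 is a transcribed pseudogene related to human kallistatin, an inhibitor of tissue kallikrein. All 3 of its probe sets were lower in Baf60a LKO, by similar amounts. The brightest read 6.09 and 5.57 in Baf60a LKO and 10.24 and 9.46 in WT, a log2 difference of -4.02 ± 0.30 (16.2-fold lower). The second read 5.62 and 4.90 in Baf60a LKO and 10.26 and 9.08 in WT, a difference of -4.41 ± 0.42 (21.2-fold lower). The third read 5.20 and 4.78 in Baf60a LKO and 9.56 and 8.74 in WT, a difference of -4.16 ± 0.30 (17.9-fold lower). On each of them replicate 1 read above replicate 2 in both genotypes, and no Baf60a LKO value came near a WT value. These differences ranked 11, 7 and 10 among the falls of all probe sets. The name of the third ends in _x_at, which marks probe sets whose probes may also hybridise to other sequences.

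**Figure D1:**
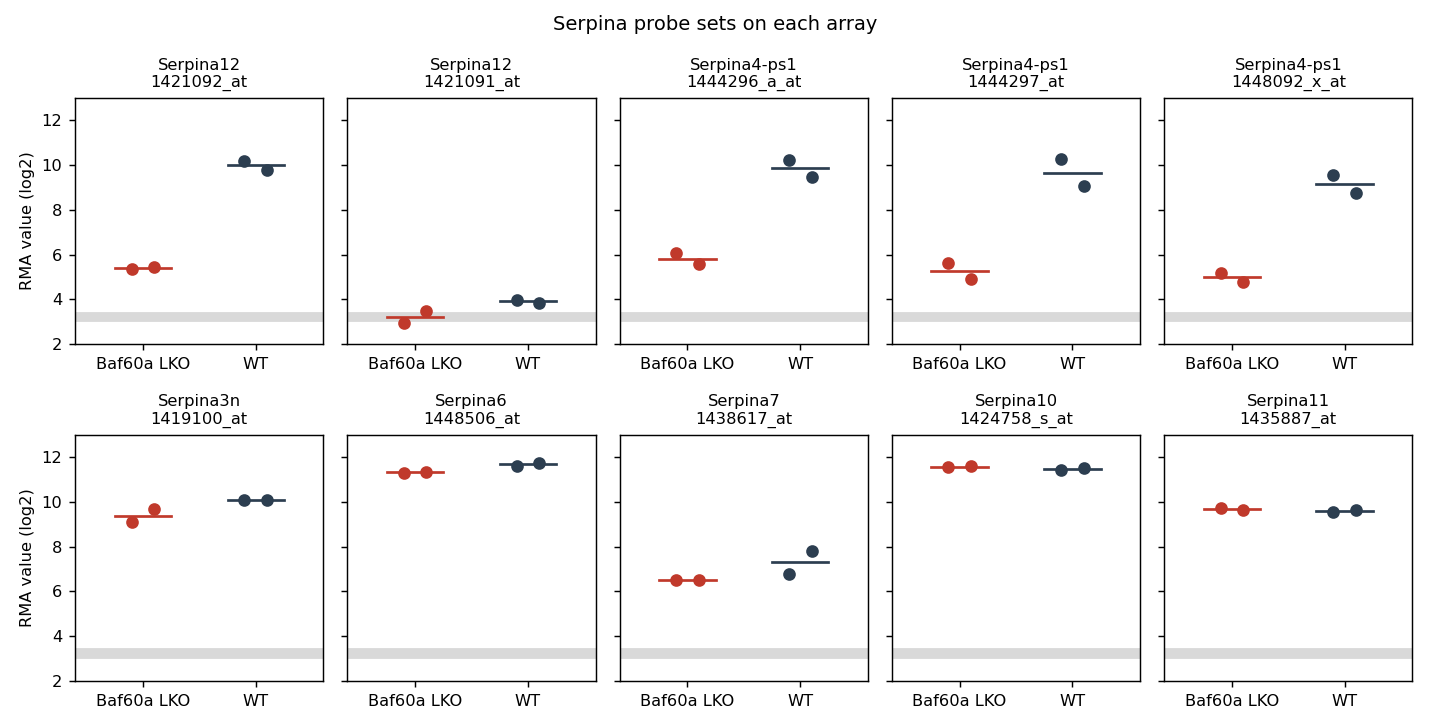
RMA values (log2) of the 10 Serpina probe sets on each array, with Baf60a LKO points in red left of WT points in dark blue; each point is 1 array, the horizontal bars are group means, and the grey band spans the bacterial 95th percentiles (3.02 to 3.42). The brighter Serpina12 probe set and the 3 Serpina4-ps1 probe sets lie far lower in Baf60a LKO, with mean differences of -4.60 to -4.02, and the dimmer Serpina12 probe set lies near the band.

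Serpina3n is a secreted inhibitor of granzyme B and other proteases whose transcript rises in inflammation. It read 9.09 and 9.66 in Baf60a LKO and 10.09 and 10.10 in WT. The Baf60a LKO arrays differed more from each other (SD 0.41) than the WT arrays did (SD 0.0053), and both were below WT. The log2 difference was -0.72 ± 0.21, 1.65-fold lower in Baf60a LKO. It was -1.01 with replicate 2 of Baf60a LKO left out and -0.43 with replicate 1 left out.

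Among the hormone carriers, Serpina6 encodes corticosteroid-binding globulin. It read 11.31 and 11.32 in Baf60a LKO and 11.61 and 11.75 in WT, a log2 difference of -0.36 ± 0.13 (1.29-fold lower). The groups did not overlap, and the replicates of each were close. Serpina7, on the X chromosome, encodes thyroxine-binding globulin. It had the same deposited value, 6.52, in both Baf60a LKO arrays, and read 6.79 and 7.82 in WT. Here the WT spread (SD 0.72) was nearly as large as the difference of -0.78 ± 0.32, which was -1.29 without WT replicate 1 and -0.27 without WT replicate 2.

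Serpina10 encodes the protein Z-dependent protease inhibitor, which blocks coagulation factor Xa. It read 11.55 and 11.60 in Baf60a LKO and 11.40 and 11.52 in WT, a log2 difference of 0.11 ± 0.12. The name of its probe set ends in _s_at, which marks probes that may read other sequences. Serpina11, a clade A member of which less is known, read 9.74 and 9.65 in Baf60a LKO and 9.53 and 9.64 in WT, a difference of 0.11 ± 0.13. In both cases the 2 groups were separate by a narrow margin, and the difference was smaller than the standard error of the limma fit. The SDs of the replicates in Baf60a LKO and WT were 0.034 and 0.078 for Serpina10, and 0.062 and 0.080 for Serpina11. Under the alternatives computed for them the differences were 0.06 to 0.17 for Serpina10 and 0.04 to 0.17 for Serpina11. With an array left out the sign could not change, because the groups did not overlap. The replicate block and the per-gene values left both differences as they were. Only the other normalizations could have changed the sign. Under these both stayed positive, and were lowest after loess, at 0.08 for Serpina10 and 0.04 for Serpina11.

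Of the 10 probe sets, 8 had both Baf60a LKO arrays below both WT arrays, which held for 19.4% of all probe sets, and 2 had both above, which held for 19.7%. By limma with Benjamini-Hochberg adjustment over all probe sets, 4 of the 10 were past the threshold of 0.05, all lower in Baf60a LKO. That was so for 0.12% of all probe sets, and 0.0666% passed as higher. With any 1 array left out 0 of the 10 passed, as did 0 of all probe sets. Because the same contrast chose the genes, nothing is read from these counts.

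All Serpina genes here but Serpina7 lie in 1 cluster on chromosome 12. RefSeq lists 28 Serpina genes and pseudogenes there, and 13 of them had a probe set of their own. Serpina12 and Serpina4-ps1 are direct neighbours among these 28, with only a long non-coding RNA gene between them. Next to Serpina12 on the other side, Serpina9, known from germinal centre B cells, was near background, at 2.81 and 2.96 in Baf60a LKO and 3.53 and 3.05 in WT. The gene after that, Serpina11, differed by 0.11. Next to Serpina4-ps1, Serpina5, the protein C inhibitor, was also dim, at 2.41 and 2.54 in Baf60a LKO and 2.68 and 2.65 in WT. The large differences on the cluster were those of the 2 adjoining genes, among the 13 that were measured. Serpina9 and Serpina5 read too low in WT to show a large fall. The same held for Serpina1f (2.69 and 2.27 in WT) and Serpina3i (3.18 and 2.79). Since the 2 genes were also chosen on this contrast, the fall is not shown to be confined to them. The most distant measured members at either end were Serpina10 (0.11) and Serpina3n (-0.72).

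Outside the cluster, the nearest measured genes were Ppp4r4 beside Serpina10 and Gsc beside Serpina3n. Ppp4r4, a phosphatase regulator, differed by -0.05 ± 0.22, and Gsc, a homeobox gene, by -0.20 ± 0.29. Neither passed (limma, adjusted p = 0.959 and 0.860 over all probe sets). The interferon-inducible genes Ifi27l2b and Ifi27, beyond Ppp4r4, differed by -0.66 ± 0.12 and -0.53 ± 0.15, and did not pass either (limma, adjusted p = 0.252 and 0.505). Beyond Gsc, Dicer1 differed by -0.11 ± 0.17 and Clmn by 0.25 ± 0.16 (limma, adjusted p = 0.868 and 0.682). Without WT replicate 1, Ppp4r4 was at 0.16, Gsc at 0.24, Dicer1 at 0.06 and Clmn at 0.08.

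**Figure D2:**
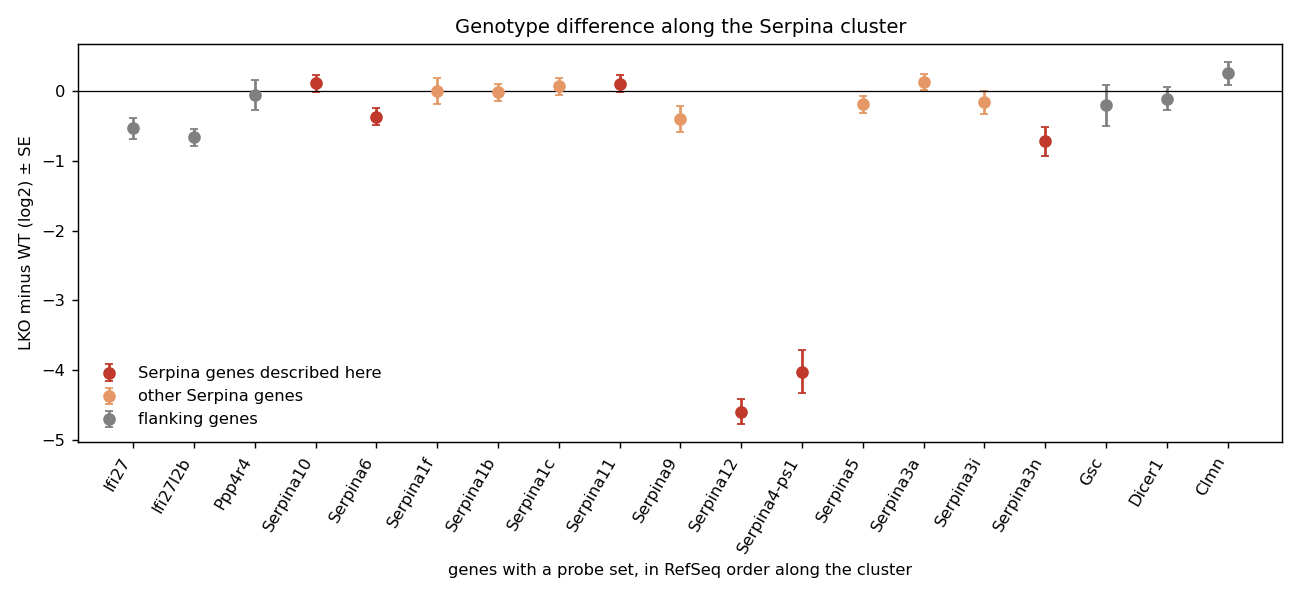
Log2 difference of Baf60a LKO minus WT (vertical axis, bars are standard errors of the limma fit) for genes with a probe set, in RefSeq order along the chromosome 12 cluster and its flanks, each by its brightest probe set. The neighbours Serpina12 (-4.60) and Serpina4-ps1 (-4.02) stand far below the other measured genes, which lie between -0.72 and 0.25.

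The rest of the clade was then examined with the same fit. It is what was left after genes selected on this same contrast were taken out. With few probe sets and a small share called over all probe sets, no call was likely in any case. The lack of calls is therefore not read as a contrast with the chosen genes. None of the 9 probe sets of 8 other clade A genes passed, where 0.187% of all probe sets did, and none reached an unadjusted p under 0.05 or passed with a trended and robust eBayes. Their differences ran from -0.40 to 0.14 with a median of -5e-04, beside -0.01 over all probe sets. Serpina9 read near background and differed by -0.40 ± 0.19 (limma, adjusted p = 0.640), and by -0.16 without WT replicate 1. Serpina5 (-0.19) and Serpina3i (-0.16, and 0.03 without WT replicate 1) read at background, where a difference was not detectable. Of the bright genes, Agt differed by 0.14 ± 0.13 (0.769), and by 0.07 without WT replicate 1. Agt encodes angiotensinogen, the precursor of angiotensin. The alpha-1-antitrypsin genes, whose products inhibit neutrophil elastase, were bright and close in the genotypes. Serpina1c read 13.93 and 13.98 in Baf60a LKO and 13.83 and 13.94 in WT. The 2 Serpina1b probe sets differed by -0.02 and 0.01. Probes can be shared among the near-identical Serpina1 copies, so these values are uncertain for a single copy. Another 2 probe sets carry several Serpina1 symbols and differed by 0.12 and 0.02. Serpina1f, Serpina3i and Serpina5 stayed below 3.42 on all arrays.

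Serpins of clades B to I, which include intracellular inhibitors and several plasma proteins, were read by 38 probe sets of 26 genes. None passed by limma over all probe sets, and 4 (10.5%) had an unadjusted p under 0.05, beside 8.17% of all probe sets. These 4 were 1 of Serpinb1a, 2 of Serpinf1 and 1 of Serpinb8. The nearest to the threshold was Serpinb1a, an inhibitor of neutrophil proteases, at 3.35 and 3.45 in Baf60a LKO and 4.66 and 4.97 in WT. The Baf60a LKO values lay near background (bacterial 95th percentiles of 3.02 and 3.12 on those arrays). The log2 difference of Serpinb1a was -1.41 ± 0.15 (limma, adjusted p = 0.0568), and its size is uncertain so near background. Under the 3 other normalizations it passed, with adjusted p of 0.0317 (quantiles), 0.0386 (loess) and 0.0288 (medians). It did not pass with the replicate block (limma, adjusted p = 0.205), where only 4 of all probe sets did. With 1 array left out no test is read, and its difference was between -1.57 and -1.26. Its second probe set, below 3.42 throughout, differed by -0.29. Serpinf1, the gene of pigment epithelium-derived factor, read 11.01 and 11.08 in Baf60a LKO and 11.66 and 11.67 in WT on one probe set (-0.62 ± 0.12, limma adjusted p = 0.285). On the other it read 11.75 and 11.80 in Baf60a LKO and 12.22 and 12.28 in WT (-0.48 ± 0.12, 0.453). With 1 value per gene Serpinb1a passed too (adjusted p = 0.0332), as did 0.484% of all genes. Both Serpinf1 probe sets passed with a trended and robust eBayes (adjusted p = 0.0176 and 0.0361). Serpinb8 differed by 0.38 ± 0.13 on one probe set (limma, adjusted p = 0.573) and by -0.14 on the other. Serpinb3a stayed below 3.42 on all arrays and is not compared.

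Of the plasma serpins, 4 are given here for their role in coagulation and complement, chosen after their values were seen. Serpinc1, antithrombin, differed by -0.13 ± 0.12 (limma, adjusted p = 0.778) and Serpind1, heparin cofactor II, by 0.06 ± 0.12 (0.894). Serpinf2, the plasmin inhibitor, differed by -0.06 ± 0.13 (0.913) and Serping1, the C1 inhibitor, by 0.01 ± 0.13 (0.989). Of the 38 probe sets, 28 were lower in Baf60a LKO than in WT and 10 higher. Over all probe sets, 51.5% were lower. The median of the 38 was -0.12, and -0.05 without WT replicate 1. The 19 of them that stayed below 3.42 on all arrays had a median of -0.12 with 16 lower (11 without WT replicate 1), and the other 19 a median of -0.13 with 12 lower (13 without it). Of all 13730 probe sets below 3.42 on all arrays, 65.0% were lower in Baf60a LKO, and 50.2% without WT replicate 1.

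**Figure D3:**
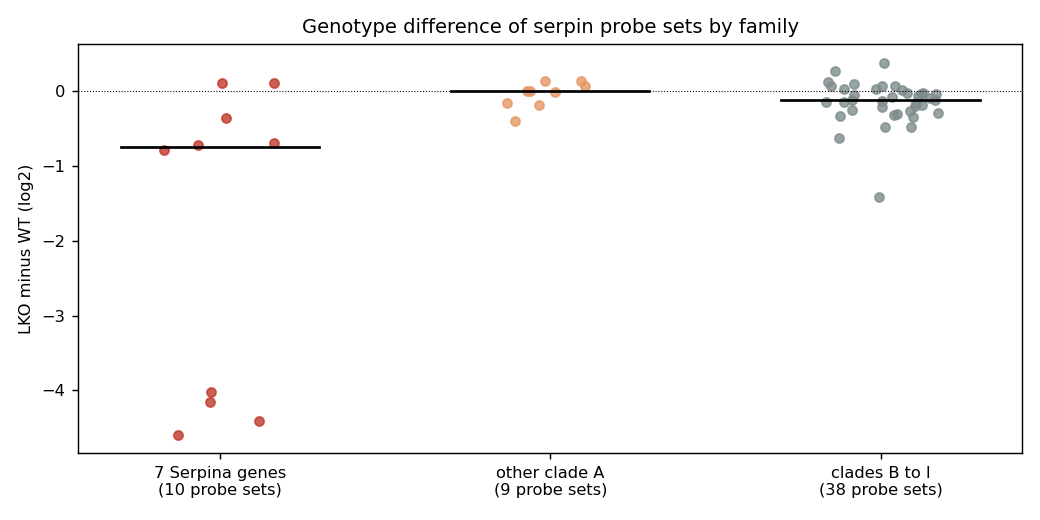
Log2 difference of Baf60a LKO minus WT (vertical axis) for each serpin probe set, by family, with black bars at the medians. The Serpina genes described here hold 4 probe sets at -4.60 to -4.02, while the other clade A probe sets lie between -0.40 and 0.14 and those of clades B to I between -1.41 and 0.38.

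Because vaspin is known as an adipokine, adipocyte markers were examined beside Serpina12. All 6 measured of 8 listed were lower in Baf60a LKO (5 of 6 after quantile or loess normalization), with a median of -0.35, and -0.19 without WT replicate 1, and none passed by limma. Their summed linear signal was 221 and 242 in Baf60a LKO and 280 and 382 in WT. The defining markers Adipoq, the adiponectin gene, and Lep, the leptin gene, were at background. Adipoq read 2.35 and 2.49 in Baf60a LKO and 2.46 and 2.48 in WT. Cidec, a lipid droplet gene that fatty hepatocytes also express, differed most (-1.11 ± 0.26, limma adjusted p = 0.399), and by -0.72 without WT replicate 2. Retn (-0.40), Adig (-0.39) and Fabp4 (-0.31) followed. Retn was at -0.06 without WT replicate 1 and Fabp4 at -0.05 without WT replicate 2.

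Among markers of cholangiocytes, all 7 measured of 8 were above WT in Baf60a LKO (6 of 7 without WT replicate 2), their median being 0.45, and none passed by limma. Their summed linear signal was 192 and 262 in Baf60a LKO, against 110 and 135 in WT. Pkhd1 differed by 1.34 ± 0.30, Epcam by 1.17 ± 0.21, Cldn7 by 0.89 ± 0.16 and Krt7 by 0.45 ± 0.22 (0.15 without Baf60a LKO replicate 2). Cftr, at background on all arrays, differed by 0.01 with overlapping groups, and by -0.19 without Baf60a LKO replicate 1. What part these markers had in the Serpina differences was not tested. None of the 8 Kupffer cell, 8 endothelial, 8 stellate, 7 lymphocyte and neutrophil and 5 acinar and keratinocyte markers measured passed. The Kupffer cell median was 0.04, and -0.10 without WT replicate 1 (7 of 8 lower) against 0.17 without WT replicate 2 (8 of 8 higher). The endothelial median was -0.10 (-0.16 and -0.05 in the same order of arrays left out) and the stellate median -0.07 (-0.13 and -0.09). The lymphocyte and neutrophil median was 0.02 (0.10 and 0.19) and the acinar and keratinocyte median -0.03 (0.09 and -0.15).

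Serpina3n was set beside 20 acute phase genes, most of whose products the liver releases in inflammation. Of these, 18 lay above WT in Baf60a LKO and 2 below, their median being 0.20, beside 0 over the brightest probe sets of all 18193 genes. Serum amyloid A gene Saa2 rose, at 11.73 and 12.46 in Baf60a LKO and 9.10 and 9.57 in WT (log2 difference 2.76 ± 0.28, limma adjusted p = 0.0479), and 19 did not pass. With 1 array left out no test is read, and the Saa2 difference was between 2.40 and 3.13. Of the brightest probe sets of all genes, 0.319% passed. Saa1 stood at 12.40 and 12.97 in Baf60a LKO and 10.36 and 10.69 in WT (2.16 ± 0.23, limma adjusted p = 0.0505). The Saa2 probe set ends in _x_at and that of Saa1 in _s_at, which mark probes that may read other sequences. Their values are therefore uncertain for a single gene. Orm2, an orosomucoid gene, differed by 3.11 ± 0.56 (limma, adjusted p = 0.241). Lcn2 differed by 1.29 ± 0.67, and by 0.27 without Baf60a LKO replicate 2. Orm3 differed by -0.76 ± 0.47, and by -0.05 without Baf60a LKO replicate 1. On the array where Saa2, Orm2 and Lcn2 were highest, Baf60a LKO replicate 2, Serpina3n was also the higher of its 2 Baf60a LKO values, though below WT.

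**Figure D4:**
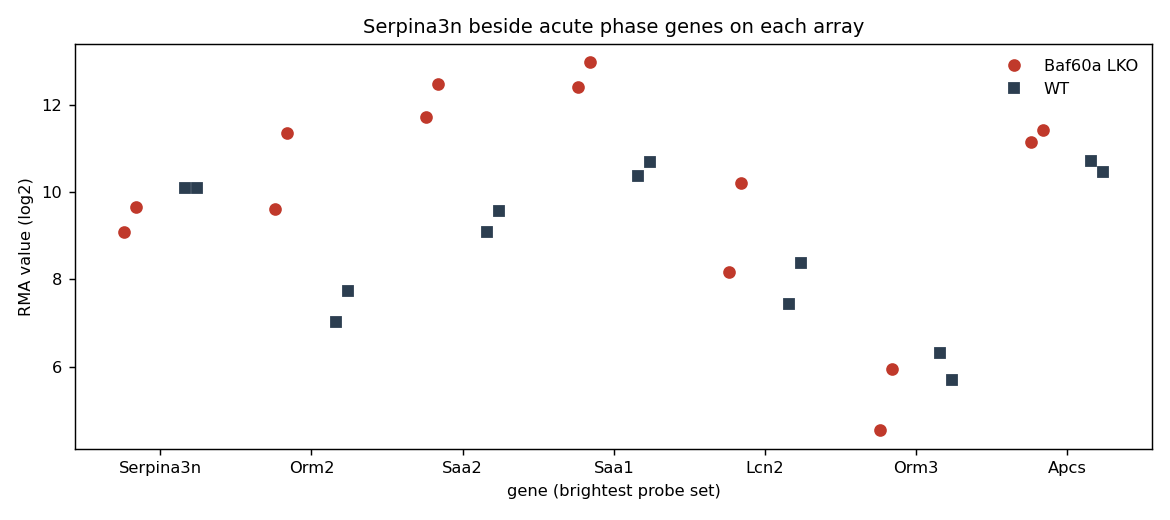
RMA values (log2) of Serpina3n and the 6 acute phase genes with the largest absolute differences on each array, with Baf60a LKO as red circles left of WT as dark blue squares. Serpina3n lies lower in Baf60a LKO, whereas Orm2, Saa2, Saa1 and Apcs lie higher without overlap.

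The proteases and partners of clade A serpins were read by 18 genes, of which 0 passed by limma in either direction. Klk7, the kallikrein that vaspin inhibits, read 3.84 and 3.86 in Baf60a LKO and 3.55 and 3.92 in WT. Klk1, tissue kallikrein, differed by -0.10 ± 0.13, and F10, the target of the Serpina10 product, by 0.04 ± 0.12. Proz, the cofactor of that product, differed by 0.36 ± 0.15 (limma, adjusted p = 0.616), and by 0.22 without WT replicate 1. The largest difference was that of the membrane protease gene Prss8, at 6.03 and 5.93 in Baf60a LKO and 4.93 and 4.997 in WT (1.02 ± 0.12, adjusted p = 0.0802). Cma1 (-0.42) and Prtn3 (0.27) had smaller differences, and Prtn3 was at -0.08 without Baf60a LKO replicate 2. The median over the 18 was 0.11.

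Genes that handle or answer the hormones carried by the Serpina6 and Serpina7 products did not pass by limma. Of 13 thyroid hormone genes, 9 were lower in Baf60a LKO, with a median of -0.09, -0.19 after quantile or loess normalization -0.24 without WT replicate 1 and -0.05 without WT replicate 2. Thrb, a thyroid hormone receptor, differed by -0.46 ± 0.14, and Me1, Thrsp and Dio1, which thyroid hormone induces in liver, by -0.42 ± 0.13, -0.39 ± 0.24 and -0.35 ± 0.12. Of 15 glucocorticoid genes, 7 were lower and 8 higher, with a median of 0.15, a mean of -0.04, and a median of -0.01 without WT replicate 1. The metallothionein genes Mt2 and Mt1 differed by -0.98 ± 0.57 and -0.56 ± 0.34, Cyp17a1 by 0.64 ± 0.20 and Tat by -0.34 ± 0.15. Without Baf60a LKO replicate 1, Mt2 was at -0.22, Mt1 at -0.14, Tat at -0.19 and Thrsp at -0.08, and Cyp17a1 was at 0.37 without WT replicate 1.

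Regulators of liver-specific transcription did not pass either. Among 13 genes of growth hormone and STAT5 signalling, 11 were lower in Baf60a LKO, and 7 without WT replicate 2. Of all probe sets, 51.5% were lower, and 52.4% without WT replicate 2. The median of the 13 was -0.10, -0.19 after quantile normalization and -0.01 without WT replicate 2. The largest differences were those of Stat5a (-0.35 ± 0.14), Igf1 (-0.27 ± 0.12), Cux2 (-0.24 ± 0.12) and Cish (-0.23 ± 0.18). Without WT replicate 1, Stat5a was at -0.23 and Cish at -0.02. Among 11 hepatocyte nuclear factors, Onecut1 (-0.47), Prox1 (0.38), Foxa1 (-0.37) and Cebpb (-0.36) differed most, with Prox1 at 0.12 and Foxa1 at -0.23 without WT replicate 1. Their median was 0.03, and -0.03 after quantile normalization, -0.05 after loess and -0.04 without WT replicate 1. Their mean was -0.05.

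The genes whose profile over the 4 arrays was nearest that of Serpina12 were sought among 18192 others, as the Euclidean distance of log2 values after each probe set's WT mean was subtracted. Mup10, a major urinary protein gene, was nearest at a distance of 0.348. It read 4.64 and 4.70 in Baf60a LKO and 9.24 and 9.29 in WT. Nr1i3, the gene of the xenobiotic receptor CAR, followed at 0.437, and the steroid dehydrogenase gene Hsd17b6 at 0.637. Serpina4-ps1, the cluster neighbour of Serpina12, was the next at 0.957. The transcribed pseudogene 9030619P08Rik came after it at 1.05, with 3.92 and 4.59 in Baf60a LKO and 8.72 and 7.72 in WT. In Serpina12, Serpina4-ps1 and 9030619P08Rik WT replicate 1 read above WT replicate 2, and in Mup10, Nr1i3 and Hsd17b6 below it. With 4 arrays in 2 groups, nearness mostly reflects the size of the genotype difference.

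**Figure D5:**
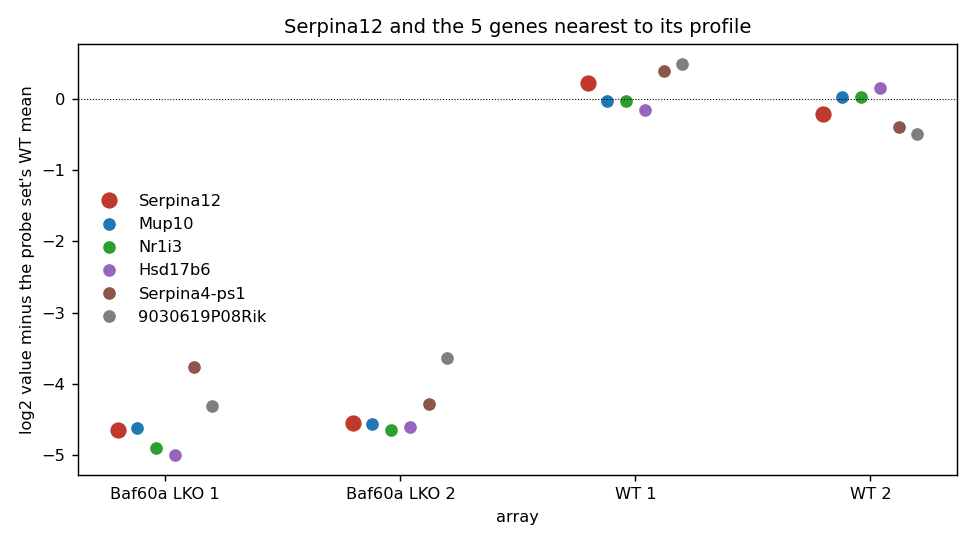
Log2 values minus each probe set's WT mean (vertical axis) on the 4 arrays, for Serpina12 (large red points) and the 5 genes nearest to it. On both Baf60a LKO arrays all 6 genes lie far below their WT mean, with mean differences of -4.80 (Hsd17b6) to -3.97 (9030619P08Rik).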

How the data were processed

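Judged by their range, the values the authors deposited are log2 expression. Per the submitters' processing notes, the authors used RMA, affy and limma, with no versions given. RMA is a quantile-based normalization that yields a summary for each probe set. Of 45101 probe sets, 64 controls were left out. The platform annotation gave 1 symbol to 34945 of the rest and several to 932, and gave none to 9160, which were not listed or had no symbol. Symbols were updated by Entrez number through the RefSeq table of GRCm38.p6, used for names and gene order only. The arrays hold no read depth, and their number limits the precision.

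All 45037 probe sets were fitted with limma 3.58.1 in R 4.3.3 (lmFit, default eBayes, 2 residual and 3.75 prior degrees of freedom), 2-sided. P-values were adjusted after Benjamini and Hochberg and called under 0.05. Adjusted p-values in the text are from this fit, and ± gives its standard error (n = 2 arrays per group). The code was tested on simulated data, where 7.46% of changes of 1 log2 unit were recovered, 91.0% of 2 and 98.5% of 4. A gene that did not pass is therefore not shown to be unchanged. List genes are read by their brightest probe set. Named genes are all probe sets of the chosen genes, up to 4 other clade A serpins and 3 of clades B to I by size (of these Serpinb3a, at background, is not compared), up to 4 genes per list plus any past the threshold, the cluster's flanks and the 5 nearest profiles. Others, such as the Serpina1 genes, Klk7, Klk1, F10, Alb, Apcs and Serpinb8, were named for their role or a figure after their values were seen. The genes and lists were chosen with earlier results of these data known.

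Alternatives were 3 normalizations, a brightness filter, probe set suffixes left out, eBayes with a trend and robust, a block on replicate number, 1 value per gene, a threshold of 0.1 and each array left out. Replicate numbers are shared by the genotypes, but nothing in the labels pairs the pools. Over probe sets, the replicate difference in Baf60a LKO correlated with that in WT at 0.147. Figures used matplotlib 3.10.9 in Python 3.11.15.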

Additional observations from a re-analysis of the deposited data

How the results depend on the processing

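With all arrays 84 probe sets passed, and 139 after quantile normalization, 162 after loess, 146 with medians subtracted, 173 with a trended and robust eBayes and 143 at a threshold of 0.1. The split of 30 higher and 54 lower in Baf60a LKO became 67 and 72 after quantile normalization, 79 and 83 after loess and 78 and 68 with medians subtracted. Without 1 array the count was 0 in every case. With the replicate block 4 passed, and of the 10 Serpina probe sets 0, against 4 without it, and 0 also without any 1 array, where fewer degrees of freedom remain. Among clades B to I, 0 became 1 after each of the 3 normalizations, with 1 value per gene by either rule and at a threshold of 0.1, and 3 with a trended and robust eBayes. The other clade A serpins stayed at 0 in every setting run. Serpina12 was at -4.60, between -4.81 and -4.38 without 1 array, and at -2.65 as the mean of its 2 probe sets, since the dim one differs less. Serpina4-ps1 by its brightest probe set was between -4.42 and -3.63 without 1 array. None of the 10 probe sets of the chosen Serpina genes changed sign under an alternative run for it. With 1 array left out the sign could not change, because the groups of each did not overlap. The replicate block left every difference as it was, so it could not change the sign either. Nothing is read from the sign staying the same. Among the other clade A genes the near-background Serpina3i, whose groups overlap, was at -0.16, and at 0.03 without WT replicate 1. Leaving out WT replicate 1 for the medians of serpin families, and each array for single genes beside the chosen Serpina genes, were alternatives chosen after seeing the data. The median of other clade A serpins was -5e-04, and 0.02 without WT replicate 1.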
